A study of Homo sapiens with 4 samples.

Results

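The skipped exons of long non-coding RNA genes comprised 474 exons in 258 genes, out of 21474 skipped exons that met the same read minimum. A skipped exon is either kept or left out between the same pair of flanking exons, and its inclusion level (ψ) is the fraction of transcripts that keep it. An exon was taken when its event was listed in both deposited files, when it shared a boundary with an exon of a GENCODE release 29 gene of type lincRNA, antisense, processed_transcript or sense_overlapping, and when it shared none with a protein-coding gene. Each file also had to hold at least 10 informative reads, which fit the form with the exon only (inclusion-only reads) or the form without it only (exclusion-only reads). Each exon was represented by the event with the most such reads, and no inclusion level or difference entered the choice. Of the 1951 long non-coding exons listed in both files, the other 1477 fell below the read minimum and are not described. The genes of the exons taken were of type lincRNA for 159 exons, processed_transcript for 159, antisense for 155 and sense_overlapping for 1.

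RNA was sequenced from MDA-LM2, a human breast cancer line selected from MDA-MB-231 for its spread to the lung. Cells of the siSNRPB2 group had been transfected with small interfering RNA against SNRPB2, for which the labels name 2 independent siRNAs and a knockdown above 95% by quantitative PCR. Cells of the siCtrl group were given the control transfection. Each group had 2 libraries of total RNA, all collected 48 h after transfection, and the labels do not say which siRNA went into which siSNRPB2 library. All libraries came from this 1 cell line, and the labels give no other allele or agent. The deposited files hold 1 value per group, so no difference between the groups could be set against a spread between replicates. Over the exons described here the siCtrl file held 81277 informative reads (10 to 3015 per exon, median 48) and the siSNRPB2 file held 68736 (10 to 2640 per exon, median 50.5).

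The product of SNRPB2 is U2B'', part of the U2 particle of the spliceosome, which binds the branch point of an intron and prepares the 3′ splice site for the cut. Long non-coding RNAs are spliced by the same machinery as messenger RNAs, but their exons carry no reading frame that must be preserved. Several classes are defined by what lies in their introns or beside them. Hosts of small nucleolar RNAs (snoRNAs) and microRNAs release these from introns or exons during processing, antisense genes overlap a gene on the other strand, and divergent transcripts start beside the promoter of a coding gene.

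Some of the exons described below are shown with their sequence, because they span the forms found among the called exons: short exons of snoRNA hosts, exons that switched from mostly included to mostly skipped or the reverse, and exons that were skipped in most transcripts of one file or both. They were read from GENCODE release 29 transcripts on hg38. Capitals mark the skipped exon, and lower case marks the last 20 bases of the upstream exon and the first 20 of the downstream exon.
The snoRNA hosts LRRC75A-AS1 (named SNHG29 in later annotation; chr17:16439660-16439703, plus strand), SNHG15 (chr7:44984357-44984426, minus strand) and ZFAS1 (chr20:49281752-49281818, plus strand) gave the first exons.
LRRC75A-AS1, 44 nt: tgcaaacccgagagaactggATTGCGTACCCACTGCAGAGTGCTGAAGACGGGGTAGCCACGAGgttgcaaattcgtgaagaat
SNHG15, 70 nt: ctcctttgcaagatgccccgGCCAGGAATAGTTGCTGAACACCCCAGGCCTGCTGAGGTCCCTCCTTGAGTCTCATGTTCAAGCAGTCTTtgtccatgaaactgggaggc
ZFAS1, 67 nt: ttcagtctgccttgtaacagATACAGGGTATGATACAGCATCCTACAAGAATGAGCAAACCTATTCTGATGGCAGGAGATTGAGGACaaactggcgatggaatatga
Exons called lower in siSNRPB2 outside the snoRNA hosts included those of DLEU2 (chr13:50045118-50045232, minus strand) and AL390729.1 (now LINC01357; chr1:112876940-112876984, plus strand).
DLEU2, 115 nt: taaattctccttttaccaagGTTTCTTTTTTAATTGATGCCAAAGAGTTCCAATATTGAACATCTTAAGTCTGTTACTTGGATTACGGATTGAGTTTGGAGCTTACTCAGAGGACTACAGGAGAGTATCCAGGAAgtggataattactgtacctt
AL390729.1, 45 nt: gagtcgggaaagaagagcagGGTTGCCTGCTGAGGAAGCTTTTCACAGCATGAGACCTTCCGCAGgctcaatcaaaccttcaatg
Exons called higher included those of AC137932.2 (chr16:89323766-89323920, plus strand), APCDD1L-DT (chr20:58519504-58519625, plus strand) and LINC01128 (chr1:847654-847806, plus strand).
AC137932.2, 155 nt: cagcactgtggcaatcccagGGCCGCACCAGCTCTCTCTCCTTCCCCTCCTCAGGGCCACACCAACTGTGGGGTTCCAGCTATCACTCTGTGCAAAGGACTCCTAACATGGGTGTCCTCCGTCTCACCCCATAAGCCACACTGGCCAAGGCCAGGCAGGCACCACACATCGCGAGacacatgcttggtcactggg
APCDD1L-DT, 122 nt: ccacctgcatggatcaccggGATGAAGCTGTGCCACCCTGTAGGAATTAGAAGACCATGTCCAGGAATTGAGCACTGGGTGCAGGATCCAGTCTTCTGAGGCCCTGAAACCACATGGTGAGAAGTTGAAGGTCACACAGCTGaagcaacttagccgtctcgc
LINC01128, 153 nt: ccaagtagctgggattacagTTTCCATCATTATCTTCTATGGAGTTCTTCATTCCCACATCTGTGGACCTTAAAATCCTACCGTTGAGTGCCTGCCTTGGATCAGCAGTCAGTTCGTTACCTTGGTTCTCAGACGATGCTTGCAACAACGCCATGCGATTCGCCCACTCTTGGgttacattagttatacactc

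Inclusion of long non-coding exons differed between the files in both directions. An exon was called when the authors' deposited table gave a ψ difference, siSNRPB2 minus siCtrl, of at least 0.1 in size and a Bayes factor (the evidence for a difference over that for none) of at least 10. By this rule 33 of the 474 exons were called lower in siSNRPB2 and 40 higher, together 15.4%. Over all 21474 tested exons the share called was 15.2%, with 7.72% lower and 7.49% higher, so the long non-coding exons were called about as often as the background. The called exons lay in 58 genes, and 5 of these genes (LRRC75A-AS1, MIR4435-2HG, LINC-PINT, LUCAT1 and LINC00630) held exons of both directions. With the median ψ difference over all events of an exon in place of the event with the most reads, the lower calls in LINC-PINT and LUCAT1 were lost. In the authors' deposited table the called differences had a median of -0.32 among the lower and 0.33 among the higher exons and reached 0.84 and 0.90 in size. A further 97 exons differed by 0.1 or more in that table with a Bayes factor under 10, so most differences of this size were not called at the depth of these genes.

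**Figure D1:**
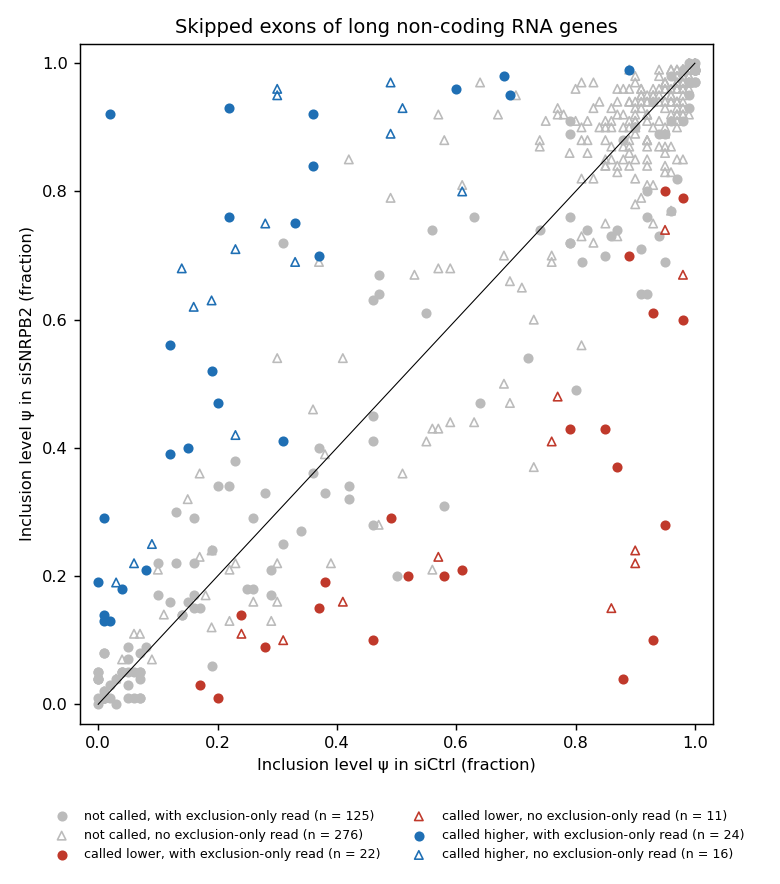
Inclusion level ψ of each of the 474 exons in siCtrl (horizontal axis, fraction) and in siSNRPB2 (vertical axis, fraction), with the line of equal values. The 33 exons called lower (red) lie below the line and the 40 called higher (blue) above it, and open triangles mark exons without exclusion-only reads.

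The reads behind a call were of more than 1 kind. MISO, the program that gave ψ, weighs inclusion-only and exclusion-only reads together with reads in the flanking exons that fit both forms, which are called flanking reads here. Of the 73 called exons, 46 had at least 1 exclusion-only read in either file (22 lower, 24 higher), and the ψ of the other 27 rested on inclusion-only against flanking reads. The 46 exons were 26.9% of the 171 long non-coding exons with an exclusion-only read, against 18.3% over all tested exons with such a read. The 27 were 8.91% of the 303 without, against 12.3% of the protein-coding exons without. These shares were not tested against each other. Exclusion-only reads were at 0 in siCtrl for 10 of the 22 exons called lower and at 0 in siSNRPB2 for 14 of the 24 called higher. Inclusion-only and exclusion-only reads alone were also compared by Fisher's exact test with Benjamini-Hochberg adjustment over all tested exons. An exon was counted at an adjusted p under 0.05 and a share difference of at least 0.1 in size. So counted, 27 long non-coding exons had a lower and 35 a higher inclusion-only share, against 5.26% and 5.43% (10.7% in either direction) of all tested exons. The counted long non-coding exons held 18 of the exons called lower by ψ and 19 of those called higher, and 0 called exons passed in the opposite direction. The Fisher test compares the files and not the conditions, because reads are not replicates.

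Reads of nearly always included exons differed between the files by far more than counting error. In 4582 tested exons included at ψ of at least 0.95 in both files, the ratio of inclusion-only to flanking reads varied between the files 9.94 times as much as counting error, and in the 74 long non-coding exons among them 10.4 times. With reads divided by 9.94, Fisher's exact test called 0 long non-coding exons (2 at an unadjusted p under 0.05), and 3 of 21474 exons in all (0.014%). Division leaves few reads in most long non-coding exons, whose median was 48 and 50.5 informative reads before it. The test could thus call few of them whatever their difference, and nothing is concluded from the 0. The factor was also measured on inclusion-only against flanking reads, not on the reads tested. It was measured between siCtrl and siSNRPB2, so it includes any effect of the knockdown on inclusion-only or flanking reads. Uneven reads and such an effect cannot be told apart with 1 value per group. The adjusted p-values below therefore describe undivided reads, and each holds for the files alone.

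Among the lower exons, the 115-nt exon of DLEU2 changed most. DLEU2 is the antisense host transcript of a microRNA cluster that is deleted in chronic lymphocytic leukaemia, and the microRNAs lie between the flanking exons of this event. Its ψ was 0.88 (deposited interval 0.68 to 1) in siCtrl and 0.04 (0 to 0.11) in siSNRPB2. The siCtrl file held 27 inclusion-only and 0 exclusion-only reads, and the siSNRPB2 file 1 and 31 (Fisher's exact test, adjusted p = 1.04e-13). The inclusion-only share thus passed from 100% (exact 95% interval 87.2 to 100%) to 3.12% (0.0791 to 16.2%), intervals that do not overlap and cover counting error only.

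The GAS5 microexon was called lower in both of its short forms, which differ in their 3′ splice site. GAS5, growth arrest-specific transcript and snoRNA host, had inclusion-only reads of 38 in siCtrl and 19 in siSNRPB2 for the 19-nt form, and of 112 and 85 for the 23-nt form. Both forms share the same exclusion-only reads, 0 in siCtrl and 31 in siSNRPB2, and are therefore not independent. The ψ of the 19-nt form was 0.95 (0.82 to 1) in siCtrl and 0.28 (0.17 to 0.41) in siSNRPB2, with a Fisher adjusted p of 4.23e-09 in the exact test. For the 23-nt form ψ was 0.98 (0.93 to 1) and 0.60 (0.51 to 0.70), with an adjusted p of 6.00e-09 in the same exact test. The other 3 GAS5 exons measured, of 221, 30 and 54 nt, had ψ of 0.97 to 0.99 in both files and no exclusion-only read. They include a longer exon that ends at the same 5′ splice site as the microexon. Its ψ difference was 0.00 in the authors' deposited table.

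A locus with a near-identical copy gave 3 of the lower calls. The 107-nt exons of AC004889.1 (now ARHGEF35-AS1) and OR2A1-AS1 have the same sequence at separate places on chromosome 7, so their reads cannot be assigned to 1 copy with confidence. Their ψ was 0.61 and 0.58 in siCtrl and 0.21 and 0.20 in siSNRPB2, with 9 inclusion-only and 19 exclusion-only reads listed for each in siSNRPB2. The 112-nt exon of OR2A1-AS1, also present in AC004889.1, had ψ of 0.93 and 0.61. LINC01106 and LINC01123, named after their values were seen, share an identical 185-nt exon as well, with ψ of 0.90 in siCtrl for both and 0.22 and 0.24 in siSNRPB2 from 70 and 16 inclusion-only reads listed for each. In all, 36 of the 474 exons had their whole sequence annotated at another place, and 6 of these were called, where 15.2% of all tested exons were. All 6 were called lower. Without the 36 exons, the calls were 27 lower and 40 higher, against 33 and 40 with them.

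Long exons gave 3 of the lower calls named by size of difference. In C5orf56 (now IRF1-AS1), an antisense transcript at the interferon regulatory factor 1 locus, a 1015-nt exon had ψ of 0.46 (0.33 to 0.60) in siCtrl and 0.10 (0.07 to 0.15) in siSNRPB2, and its exclusion-only reads were 0 and 16 (Fisher's exact test, adjusted p = 4.53e-07). The 1898-nt exon of CCDC18-AS1 had ψ of 0.85 and 0.43, with 219 inclusion-only and 0 exclusion-only reads in siCtrl and 125 and 4 in siSNRPB2 (Fisher's exact test, adjusted p = 0.0975). The 1330-nt exon of AC013460.1 had ψ of 0.86 and 0.15, its exclusion-only reads were 0 in both files, and the flanking reads were 0 in siCtrl and 24 in siSNRPB2. All 3 long exons were thus called by ψ, and of these C5orf56 alone also passed Fisher's exact test.

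Among the higher exons, AC137932.2 and OSER1-DT switched from mostly skipped to mostly included. The 155-nt exon of AC137932.2 was chosen after its values were seen, since its 15 informative reads in siCtrl fall below the 20 asked of named exons. Its reads in siCtrl were 0 inclusion-only and 15 exclusion-only, those in siSNRPB2 38 and 0, and ψ of 0.02 (0 to 0.06) and 0.92 (0.74 to 1) (Fisher's exact test, adjusted p = 1.74e-11). OSER1-DT, a divergent transcript beside the oxidative stress responsive gene OSER1, had a 316-nt exon with ψ of 0.22 (0.14 to 0.32) and 0.93 (0.84 to 0.98). Its inclusion-only and exclusion-only reads were 20 and 19 in siCtrl and 85 and 2 in siSNRPB2 (Fisher's exact test, adjusted p = 2.78e-08).

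APCDD1L-DT, divergent from the gene of a membrane protein similar to the Wnt inhibitor APCDD1, held a pair of overlapping exons called higher. They share their 3′ splice site, and their 5′ splice sites lie 26 nt apart. The 122-nt form had 28 inclusion-only reads in siCtrl and 61 in siSNRPB2 with ψ of 0.12 (0.08 to 0.16) and 0.56 (0.42 to 0.72), and the 96-nt form had 24 and 33 with ψ of 0.12 and 0.39. The exclusion-only reads common to both were 39 in siCtrl and 0 in siSNRPB2 (Fisher's exact test, adjusted p = 1.04e-12 and 1.28e-08). The third exon measured in this gene, of 162 nt, had ψ of 0.99 and 0.96 and no exclusion-only read.

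Of the other higher exons, those of LINC01128, AC008969.1, ZNF433-AS1 and LINC00960 lost exclusion-only reads. LINC01128 (153 nt) had 13 in siCtrl and 0 in siSNRPB2 with ψ of 0.36 and 0.92, and AC008969.1 (318 nt) had 14 and 0 with ψ of 0.60 and 0.96. ZNF433-AS1 (213 nt), antisense to a zinc finger gene, had 73 reads with and 51 without the exon in siCtrl and 130 and 20 in siSNRPB2, with ψ of 0.37 (0.29 to 0.46) and 0.70 (0.60 to 0.80). LINC00960 (161 nt) had 6 and 0 exclusion-only reads with ψ of 0.33 and 0.75. By Fisher's exact test the adjusted p-values were 2.06e-04, 4.58e-05, 4.64e-06 and 0.0165, so all 4 exons passed. The exons of LINC00630 (172 nt, ψ 0.30 and 0.96), AL157392.3 (303 nt, 0.30 and 0.95), THUMPD3-AS1 (148 nt, 0.28 and 0.75), AL669831.5 (253 nt, 0.19 and 0.63), BX890604.2 (207 nt, 0.49 and 0.89) and MUC20-OT1 (110 nt, 0.33 and 0.69) were without exclusion-only reads. In LINC00630 the inclusion-only reads were 23 in siCtrl and 87 in siSNRPB2 beside 138 and 110 flanking reads, so its call rests on that ratio. For AL157392.3 the median over its 5 events was 0.35 in the authors' deposited table, against 0.65 for the event with the most reads.

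**Figure D2:**
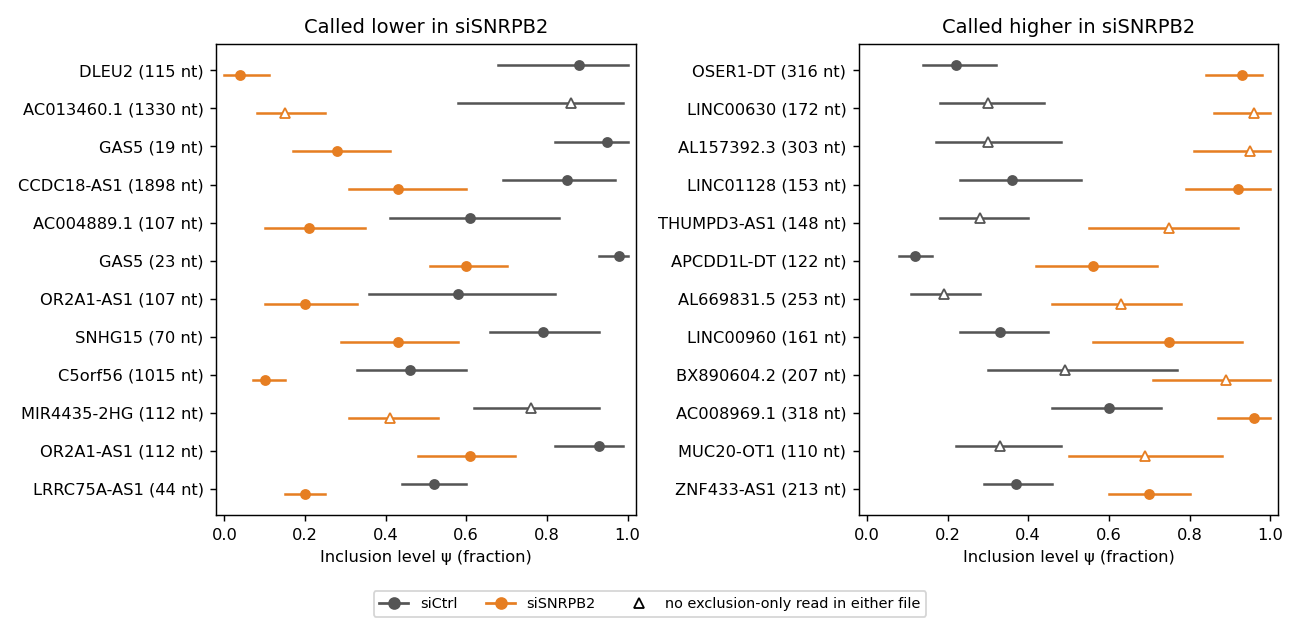
Inclusion level ψ (fraction) with its deposited interval in siCtrl (grey) and siSNRPB2 (orange) for the 12 exons per direction with the largest called difference and 20 or more informative reads in both files; triangles mark exons without exclusion-only reads. The DLEU2 exon passes from 0.88 to 0.04 and the OSER1-DT exon from 0.22 to 0.93.

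Hosts of snoRNAs were among the most deeply read long non-coding genes. Of the 39 listed hosts, 13 were measured with 47 exons, of which 8 were called lower and 3 higher (23.4% called, against 15.2% of all tested exons). The median ψ in siCtrl was 0.96 and the median difference over the 47 exons was -0.01 in the authors' deposited table. Apart from the GAS5 pair, the lower exons belonged to LRRC75A-AS1, SNHG15, SNHG16, SNHG17 (a pair) and EPB41L4A-AS1, and the higher ones to SNHG1, LRRC75A-AS1 and ZFAS1. Among all long non-coding exons, 40 had a snoRNA between their flanking exons, and 6 of these were called lower and 2 higher. The list was drawn up with earlier results of these data known, and its share was not tested against other genes.

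LRRC75A-AS1 had 7 exons measured, and 3 of them end at the same 5′ splice site and start at different 3′ splice sites. The shortest, of 44 nt, had 150 reads with and 30 without the exon in siCtrl and 52 and 36 in siSNRPB2, and ψ of 0.52 (0.44 to 0.60) and 0.20 (0.15 to 0.25) (Fisher's exact test, adjusted p = 4.39e-04). The longer forms of 123 and 176 nt, with the same exclusion-only reads, had ψ of 0.82 and 0.79 in siCtrl and 0.74 and 0.72 in siSNRPB2 and were not called. The 67-nt exon of the same gene was called higher with ψ of 0.04 (0.02 to 0.07) and 0.18 (0.14 to 0.24), from 13 and 55 inclusion-only reads. The deepest exon of the gene, of 57 nt, had ψ of 0.96 and 0.98 from 1775 and 1111 informative reads and was not called. The calls in this gene thus fell on weakly or partly included exons.

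ZFAS1, antisense to ZNFX1, carried the deepest called exon of the snoRNA hosts. Its 67-nt exon had 292 reads with and 401 without the exon in siCtrl and 274 and 208 in siSNRPB2, and ψ of 0.31 (0.28 to 0.34) and 0.41 (0.37 to 0.45) (Fisher's exact test, adjusted p = 1.59e-05). The 62-nt exon of ZFAS1 had ψ of 0.36 in both files from 942 and 843 informative reads. Its 86-nt exon had ψ of 0.96 and 0.91 with 43 and 71 exclusion-only reads. The ψ difference was below 0.1, and Fisher's exact test gave an adjusted p of 9.55e-05. The 3 exons of this gene thus gave a higher, an equal and a lower ψ in siSNRPB2.

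In SNHG17, a pair of exons of 118 and 114 nt had ψ of 0.37 and 0.38 in siCtrl and 0.15 and 0.19 in siSNRPB2, with 2 and 33 exclusion-only reads common to both (Fisher's exact test, adjusted p = 3.01e-05 and 1.79e-04). For the 114-nt exon the median over its 3 events was 0.09 in the authors' deposited table, against -0.19 for the event with the most reads, so its direction depends on the flanking exons. The 70-nt exon of SNHG15 had ψ of 0.79 (0.66 to 0.93) and 0.43 (0.29 to 0.58), from 82 and 32 inclusion-only reads and 1 and 0 exclusion-only reads. Its inclusion-only share was 98.8% and 100%, a difference in the opposite direction to ψ (Fisher's exact test, adjusted p = 1). SNHG16 (227 nt, ψ 0.49 and 0.29), EPB41L4A-AS1 (73 nt, 0.98 and 0.67) and SNHG1 (43 nt, 0.51 and 0.93) were called by ψ and did not pass Fisher's exact test (adjusted p = 0.516, 1 and 1).

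The 6 most deeply read long non-coding exons were nearly always included in both files. Depth here counts informative reads, and 74756 of the 81277 in siCtrl were inclusion-only. A ranking by depth therefore favours included exons. SNHG5, a snoRNA host, held 4 of the 6 exons with the most reads: the exons of 81, 238, 105 and 74 nt had 1627 to 2586 informative reads in siCtrl and ψ of 1 in siCtrl and 0.99 in siSNRPB2. These exons overlap and share flanking exons. The exons of 81, 105 and 74 nt had 0 exclusion-only reads in siCtrl and the same 8 in siSNRPB2 (Fisher's exact test, adjusted p = 9.82e-03, 0.0161 and 0.0159). The exon with the most reads, of 178 nt in POLR2J4, had 3015 and 2640 inclusion-only reads, 0 exclusion-only reads and ψ of 1 in both files. Where both files had 200 or more informative reads, 3 of 70 long non-coding exons were called (4.29%), against 9.24% of 6667 protein-coding exons.

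Of 28 listed hosts of microRNAs, 4 were measured with 22 exons, of which 3 were called lower and 2 higher (22.7%, against 15.2% of all tested exons). Besides DLEU2, the calls fell in MIR4435-2HG and LINC-PINT, 1 in each direction. The list does not hold MIR4300HG or MIR762HG, which had 1 exon each that was not called. Among all long non-coding exons, 20 had a microRNA between their flanking exons, and 7 of these were called, a share that was not tested. LINC-PINT, a transcript induced by p53, had a 131-nt exon with ψ of 0.98 (0.94 to 1) and 0.79 (0.71 to 0.87), and 0 and 16 exclusion-only reads (Fisher's exact test, adjusted p = 2.50e-04). Its 112-nt exon had 0 inclusion-only reads in siCtrl and 16 in siSNRPB2, beside 37 and 46 exclusion-only reads, with ψ of 0.01 and 0.13 (Fisher's exact test, adjusted p = 3.48e-03). By the most deeply read event, 1 exon of this gene was thus called lower and another higher. For the 131-nt exon the median over its 2 events was -0.095 in the authors' deposited table, against -0.19 for that event, which is below the size asked of a call.

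MIR4435-2HG and CYTOR are near-identical copies on chromosome 2, and 4 exons of each had their whole sequence in the other. The 12 MIR4435-2HG exons measured ranged in ψ from 0.14 to 0.99 in siCtrl. Its 112-nt exon was called lower (ψ 0.76 and 0.41) and its 195-nt exon higher (0.23 and 0.42), both with no exclusion-only read. For the 195-nt exon the median over its 4 events was 0.30 in the authors' deposited table, against 0.19 for the event with the most reads. The 2015-nt exon, among the 6 exons with the most reads, had ψ of 0.99 and 0.95 from 2074 and 2007 informative reads. In CYTOR, which is widely raised in tumours, the 109-nt exon was called lower (ψ 0.57 and 0.23, no exclusion-only read). Of its other exons, 6 passed Fisher's exact test with a higher inclusion-only share and moved by 0.07 or less in ψ, and they share 107 exclusion-only reads in siCtrl and 30 in siSNRPB2. The MIR4435-2HG exons of 201 and 385 nt went the other way and were not called, with ψ differences of -0.08 and -0.02. Their inclusion-only shares differed by -0.20 and -0.14, siSNRPB2 minus siCtrl (Fisher's exact test, adjusted p = 1.22e-05 and 5.13e-05).

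Of the long non-coding RNAs studied in cancer, 16 of 59 listed genes had 65 exons, with 5 called lower and 7 higher (18.5%, against 15.2% of all tested exons). PVT1, the long non-coding neighbour of MYC, had 10 exons measured and gave 3 of the higher calls. Its 414-nt exon had 0 inclusion-only reads in siCtrl and 70 in siSNRPB2, and its 115-nt exon 1 and 48, beside the same 96 and 59 exclusion-only reads (Fisher's exact test, adjusted p = 9.24e-20 and 2.73e-13). Their ψ was 0 and 0.19 for the 414-nt exon and 0.01 and 0.29 for the 115-nt exon, whose median difference over its 2 events was 0.54 in the authors' deposited table, against 0.28. The 301-nt exon of PVT1 had ψ of 0.15 and 0.40, and the other 7 were not called, with ψ of 0.05 to 0.98 in siCtrl. All 3 calls in PVT1 were thus towards inclusion of exons with a ψ of 0.15 or less in siCtrl.

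LINC00630 and LUCAT1 each held calls in both directions by the most deeply read event. In LINC00630 the 172-nt and 666-nt exons were called higher (ψ 0.30 and 0.96, 0.69 and 0.95) and the 177-nt exon lower (0.95 and 0.80). LUCAT1, a stress-induced transcript linked to smoking and lung cancer, had 10 exons measured. Its 201-nt exon was called lower (0.95 and 0.74) and its 152-nt exon higher (0.08 and 0.21). Over the 3 events of each, the median difference in the authors' deposited table was -0.01 for the 201-nt exon, which ends that call, and 0.28 for the 152-nt exon. The LUCAT1 exons with the most reads, of 295 and 177 nt, had ψ of 0.99 to 1 in both files, and that of 935 nt had 0.42 and 0.32, where the authors' deposited table gives a Bayes factor of 2.97. JPX, a non-coding activator of X inactivation, had a 376-nt exon called lower (0.41 and 0.16) that overlaps an exon of FTX on the opposite strand. Its 1142-nt exon had ψ of 0.19 and 0.12 from 833 and 549 inclusion-only reads, below the size asked of a call.

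LINC00941 shows how far a value depends on the flanking exons chosen. Its exons of 171 and 228 nt, named after their values were seen, were called higher with ψ of 0.68 and 0.98 and of 0.19 and 0.52, and they share 18 exclusion-only reads in siCtrl and 0 in siSNRPB2. The median ψ difference over the 3 events of the 171-nt exon was 0.01 in the authors' deposited table, against 0.30 for the event with the most reads. Among the 73 called exons, 10 shared both flanking exons with another called exon and thus the same exclusion-only reads. These were the pairs in GAS5, SNHG17, APCDD1L-DT, PVT1 and LINC00941.

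The share called ranged from 9.68% to 19.5% over the 3 main gene types, a spread that was not tested. Of the exons of lincRNA genes 19.5% were called (12 lower, 19 higher), of processed_transcript genes 17.0% (14 lower, 13 higher) and of antisense genes 9.68% (7 lower, 8 higher). The antisense exons also had fewer reads, with a median of 38 informative reads in each file against 46 and 53 for lincRNA and 61 and 59 for processed_transcript exons. An exclusion-only read was present for 26.5% of antisense exons, 40.9% of lincRNA exons and 40.3% of processed_transcript exons. An annotated exon on the opposite strand overlapped 84 of the 474 exons, and 7 of these were called, where 15.2% of all tested exons were. The strand setting of the authors' counting is not given in the sources used here, so reads of a gene and its partner on the other strand cannot be told apart there.

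Long non-coding exons were more often partly included than protein-coding exons at low depth. In siCtrl ψ lay between 0.1 and 0.9 for 48.9% of long non-coding exons, below 0.1 for 11.6% and above 0.9 for 39.5%. Among 20445 protein-coding exons these shares were 36.3%, 23.5% and 40.2%. The long non-coding exons had fewer informative reads, with medians of 48 and 50.5 against 129 and 112, and their median deposited ψ interval was wider, 0.16 and 0.17 against 0.07 and 0.08. With 10 to 19 informative reads in the file with fewer, 68.6% of long non-coding and 50.6% of protein-coding exons lay between 0.1 and 0.9 in siCtrl. From 50 to under 200 reads the shares were 33.6% and 37.3%, and with 200 or more reads 14 of 70 long non-coding exons and 23.1% of protein-coding exons lay in that range. The long non-coding share was thus the higher below 50 reads and the lower above, and no test was run on it.

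**Figure D3:**
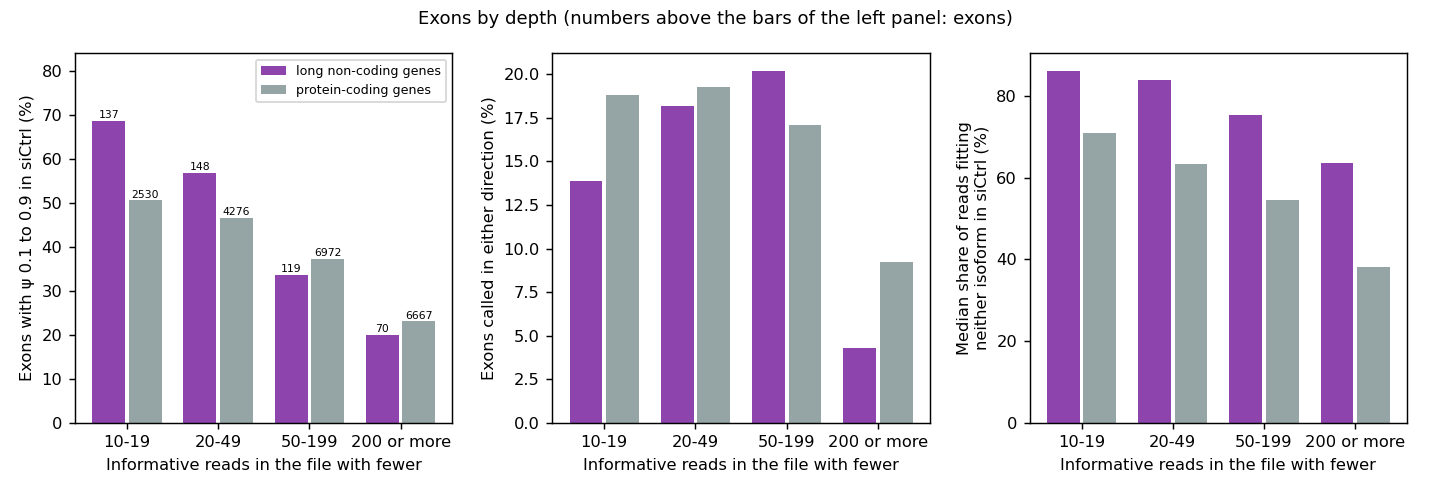
Share of exons with ψ between 0.1 and 0.9 in siCtrl (left, percent), share called in either direction (middle, percent) and median share of reads fitting neither isoform in siCtrl (right, percent), for long non-coding (purple) and protein-coding exons (grey) by the number of informative reads in the file with fewer. The share called is 13.9% against 18.8% at 10 to 19 reads and 4.29% against 9.24% at 200 or more, and the share of reads fitting neither isoform is higher for long non-coding exons at each depth.

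A larger part of the reads over long non-coding events fitted neither isoform, as reads in introns do. The median share of such reads was 79.2% in siCtrl and 80.5% in siSNRPB2, against 52.1% and 55.0% for protein-coding exons. At 200 or more informative reads it was 63.5% in siCtrl for long non-coding exons and remained higher than for protein-coding ones, as at each lower depth. The share was higher in siSNRPB2 than in siCtrl for 268 of the 474 long non-coding exons (56.5%) and for 61.6% of protein-coding exons. Pooled over reads it was 78.4% in siCtrl and 81.3% in siSNRPB2 for long non-coding exons, and 51.4% and 53.3% for all tested exons. Within single genes it varied widely: for the GAS5 exon of 19 nt it was 98.7% and 97.7%, for AC013460.1 it was 1.72% in both files, and for Z68871.1, whose 111-nt exon was called lower (ψ 0.89 and 0.70), it was 10.1% and 27.0%. The last gene was named after its values were seen.

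Features that the rule for the exons does not name are given beside those of protein-coding exons, with no test of the differences. Reads inside an exon count towards the read minimum, so exon length is not independent of the choice. The median long non-coding exon was 164 nt long against 119 nt for protein-coding exons, and 34.8% against 41.8% had a length that is a multiple of 3. Median GC content was 48.6% (468 exons with a sequence) against 49.3%. The exon ended in AG in 49.4% against 56.2% and started with G in 42.9% against 43.5%. The flanking introns had medians of 2444 and 2818 nt upstream and downstream, against 2176 and 2042 nt. The median length was 118 nt among exons called lower and 184 nt among those called higher, and 21.2% and 42.5% were a multiple of 3.

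Reads over the events of each gene were used as a proxy of its level, scaled to the total of each file. In bulk RNA, fewer cells that express a gene and less of its RNA per cell cannot be told apart. Of the 175 genes of these exons with at least 100 reads on average, 3 were 2-fold or more lower in siSNRPB2 and 4 were 2-fold or more higher, against 1.81% and 1.80% of 8015 genes of all kinds. The median log2 ratio was 0.00579 with an SD of 0.463 over genes. The lower genes were AC084033.3 (568 and 158 reads, log2 ratio -1.66, exact 95% interval -1.93 to -1.41), AC091057.1 (-1.50) and SGO1-AS1 (-1.12). The higher ones were TARID (81 and 197 reads, 1.45, interval 1.08 to 1.85), SNHG17 (1.09), LINC01001 (1.06) and AL161457.2 (1.05). The next in order were AC137932.2 and AL590094.1, both at -0.89, and TTC28-AS1 at 0.91. The intervals cover counting error only.

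The snoRNA hosts did not move together in reads. SNHG17 had 206 reads in siCtrl and 390 in siSNRPB2 (log2 ratio 1.09, interval 0.85 to 1.35), and SNHG16 had 567 and 859 (0.77, 0.62 to 0.93). SNHG8 had 1224 and 631 reads (-0.78, -0.92 to -0.64), and LRRC75A-AS1 had 8948 and 5794 (-0.45, -0.50 to -0.40). GAS5 (-0.21), SNHG5 (-0.20) and ZFAS1 (-0.17) lay closer to 0. The SNHG17 exons called lower thus lie in a gene with more reads in siSNRPB2, and AC137932.2, whose exon was included more, in a gene with fewer. For AC137932.2 the 444 and 211 reads of the gene are those of the exon's own event. Its level and its ψ therefore rest on the same reads and are not separate observations. DLEU2 had a ratio of -0.08 (interval -0.56 to 0.41) and OSER1-DT of -0.04 (-0.24 to 0.17), intervals that include 0.

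**Figure D4:**
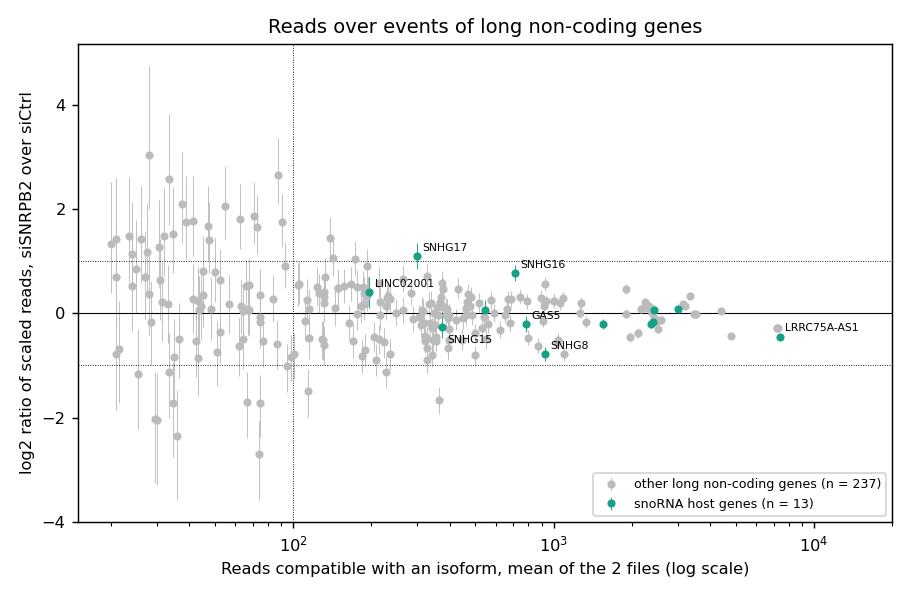
Log2 ratio of scaled reads, siSNRPB2 over siCtrl (vertical axis), against the mean number of reads compatible with an isoform in the 2 files (horizontal axis, log scale) for long non-coding genes that averaged 20 reads or more; bars are exact 95% intervals for counting error, and snoRNA hosts are green. Ratios spread widely below 100 reads, and SNHG17 at 1.09 and SNHG8 at -0.78 are the snoRNA hosts farthest from 0.

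Genes that act on non-coding and misspliced transcripts were read from lists as context. Of 16 nonsense-mediated decay factors, 10 had 30 exons, with 1 called lower and 3 higher (13.3%). The lower call was a 172-nt exon of the phosphatase recruiter SMG5 (ψ 0.65 and 0.49), and the higher calls included the 164-nt and 339-nt exons of the exon junction protein gene MAGOHB (0.17 and 0.50, 0.11 and 0.31). Of 19 genes of the nuclear RNA exosome and its adaptors, 13 had 38 exons, with 2 lower and 2 higher (10.5%). These were exons of ZCCHC8, a scaffold of the nuclear exosome targeting complex (285 nt with ψ of 0.86 and 0.29, 119 nt with 0.97 and 0.48, 61 nt with 0.17 and 0.41), and of the helicase gene MTREX (113 nt, 0.64 and 0.95). Over all tested exons 15.2% were called, and the difference from either list was not tested.

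At the read minimum the values were loose. The 21 exons with exactly 10 informative reads in the file with fewer had ψ differences of -0.30 to 0.54 in the authors' deposited table, with 2 called. The 18 exons with 9 such reads, just outside, had differences of -0.69 to 0.45, with 5 called. Of long non-coding exons with 10 to 19 such reads 13.9% were called, and of all tested exons 15.2%. For the cell line, the files listed CD44 (50227 and 38883 compatible reads), AXL (5343 and 3948) and LGALS1 (6540 and 3779), markers of mesenchymal breast cancer cells. The summed level of the 3 mesenchymal markers with an event, of 6 listed, was 3390 and 2874 RPM, here reads scaled to the file's total over events. The 2 of 6 luminal markers with an event summed to 19.4 and 11.3, and the 3 of 5 blood and endothelial markers to 4.19 and 5.73. Markers without an event were not measured, among them VIM, CDH1 and EPCAM. SNRPB2 had no event assigned, so the level of the targeted gene was not analysed here.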

How the data were processed

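The 4 libraries, 2 in each group, were made from total RNA with a stranded low-input kit, per the labels. The aligner was STAR 2.7 and the genome build hg38, per the submitters' processing notes. The authors deposited MISO inclusion levels (ψ) as a fraction with an interval, and read numbers per class of compatibility, in 1 file per group, per the file headers. The authors' deposited comparison gives the ψ difference as a signed score, siSNRPB2 minus siCtrl, and the Bayes factor as a ratio that reaches at most 1e+12. Not given in the sources used here are the MISO version, event annotation, interval level, strand setting and any merging of libraries.

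Skipped exons were assigned to GENCODE release 29 genes by position, keeping 1 event per exon and asking for 10 or more informative reads in both files. The call needed a difference of at least 0.1 and a Bayes factor of at least 10. Shares carry exact Clopper-Pearson 95% intervals. Fisher's exact test (2-sided) used Benjamini-Hochberg adjustment over 21474 exons and was tested on simulated data. Its counts asked for an adjusted p under 0.05 and a share difference of at least 0.1. The noise factor, 9.94, set the median chi-square between the files against its expected median. Despite its name, the factor includes any effect of the knockdown on the reads used. It used inclusion-only and flanking reads of nearly always included exons that had flanking reads and no exclusion-only read. Reads per gene were those fitting either isoform on the deepest event, scaled per file, as log2 ratios with a pseudocount of 1.

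Exons named in the text are, per direction, the 12 called with the largest difference and 20 or more informative reads in both files, the 6 exons with most reads, up to 4 exons per list by reads, and the 5 highest and lowest genes by reads. Other called exons named were chosen after their values were seen. Some items are not reported here. The exons, lists and rules were chosen with earlier results of these data known. Alternatives changed thresholds, read minimum, estimator, scaling and the event used for an exon (the median over all its events) 1 at a time, and exclusion of exons with a copy elsewhere was added after seeing the data. Versions were matplotlib 3.10.9, scipy 1.17.1, pandas 2.3.3, numpy 2.4.6 and Python 3.11.15.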

Additional observations from a re-analysis of the deposited data

Results flagged for a closer look

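Data outside the comparison held further long non-coding exons. With at least 10 informative reads, 65 long non-coding exons were listed in the siSNRPB2 file and absent from the siCtrl file, and 46 were listed in siCtrl and absent from siSNRPB2. Among protein-coding exons the numbers were 292 and 231. With the same minimum in both files, 474 long non-coding and 20445 protein-coding exons were compared. An event absent from a file has no ψ there, so these exons entered no comparison. The 65 exons were singled out because the control file does not list their events, and the reverse holds for the 46. An event that is not listed was not shown to lack reads, and the difference between 65 and 46 was not tested.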

How the results depend on the processing

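The number of long non-coding exons called lower was 20 when the Bayes factor had to reach 100 and 14 of 189 exons with at least 50 informative reads. The number called higher was 13 of 189 exons with at least 50 informative reads and 24 of 171 with at least 1 exclusion-only read. Over all tested exons, the lower and higher calls were 979 and 884 with at least 50 informative reads, and 983 and 946 with at least 1 exclusion-only read. These settings keep fewer exons or ask for a larger Bayes factor. With the median over all events of an exon, 31 were lower and 39 higher. With reads divided by the noise factor, Fisher's exact test called 0 long non-coding exons lower and 0 higher, and 2 and 1 of all tested exons, with fewer reads per exon by construction. Genes with reads 2-fold or more higher numbered 2 with a pseudocount of 10. With reads summed over all events of a gene, 5 were lower and 9 higher, and the cause was not tested. The SNHG15 exon of 70 nt turned to 0.01 in the inclusion-only share by Fisher's exact test, on undivided and on divided reads. No paired analysis was possible because the files hold 1 value per group, and for the same reason no replicate could be left out. Depth limits most of these exons: the median deposited interval of ψ was 0.16 wide in siCtrl and 0.17 in siSNRPB2.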
